A study of Mus musculus with 9 samples.

Results

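The cytosolic ribosomal protein genes were read as one family in the intestinal epithelial cells (IECs) of mouse colon. Members were the rows of the count table whose symbol was Rpl or Rps with a number and an optional a, l, x or y and digit, together with Rplp0, Rplp1, Rplp2 and Rpsa. This rule found 89 members among 46095 symbols. Symbols ending in ps, which mark pseudogenes, and the Rps6k kinases were left out. In the GENCODE M21 annotation 83 of the 89 were protein-coding and 6 were pseudogenes (Rpl32l, Rpl6l, Rps12l1, Rps3a2, Rps3a3 and Rps4l).

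RNA sequencing compared Smad4Vil-KO mice (4 libraries) with Smad4Vil-KO;Setd2Vil-KO mice (5 libraries), here called double-knockout mice. Both genotypes lacked Smad4, and the double-knockout mice also lacked Setd2, the methyltransferase that trimethylates histone H3 lysine 36. Deletion was driven by Cre under the Villin promoter, which is active in the intestinal epithelium, on a C57BL/6j background. All mice received the carcinogen azoxymethane (AOM) at 10 mg/kg at 8 weeks of age with 2% dextran sulphate sodium (DSS), and colon IECs were collected by EDTA at 10 days. The comparison therefore asks what loss of Setd2 adds to loss of Smad4, and holds no Smad4-intact library. The labels do not say that the libraries came from separate mice, so the p-values measure the spread between these libraries.

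Each ribosome has a small subunit that decodes the mRNA and a large subunit that joins the amino acids. Every subunit holds 1 copy of most of its proteins, and many of their mRNAs start with a pyrimidine tract through which mTOR controls their translation. In the genome these genes have left many processed pseudogenes, intronless copies made by reverse transcription of their short and abundant mRNAs. In the renewing intestinal epithelium ribosome production is highest in the dividing cells of the crypts.

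Total counts per library were 12487129 to 17120202. Setd2, the deleted gene, had 117.8, 119.9, 99.0 and 114.2 CPM (counts scaled to the library size after TMM) in the Smad4Vil-KO libraries and 57.7, 86.9, 55.6, 53.8 and 75.9 CPM in the double-knockout libraries, with no overlap. Smad4, deleted in both genotypes, still had 54.2 to 92.6 CPM and 38.2 to 113.7 CPM. All 12 markers of colon epithelium were tested, and 0 of them passed the test by edgeR at an adjusted p under 0.05 (1 unadjusted, 1 by DESeq2 and 1 by limma-voom). Over all genes edgeR called 6.76% higher and 6.54% lower, DESeq2 10% and 9.12%, and limma-voom 9.60% and 10.4%, and 15.3% had an unadjusted p under 0.05 in each direction. Leukocyte markers summed to 81.2 to 193.0 CPM and 64.6 to 146.7 CPM in the 2 genotypes, and those of stroma and vessels to 13.5 to 30.8 CPM and 21.4 to 61.6 CPM. Markers of small intestinal enterocytes were higher in the double-knockout libraries, with 5 of 9 tested genes (55.6%) called by edgeR, and sums of 1289 to 1588 CPM against 1850 to 2945 CPM. Apoa1 and Apoa4 were at 0 in all Smad4Vil-KO libraries. Apoa1, 1 of the 5 called, thus passed the filter only through the double-knockout libraries, so that its groups had to differ. Y-linked genes had at least 3857 counts in double-knockout replicates 1, 2 and 5 and at most 28 counts in every other library. The others, the 4 Smad4Vil-KO libraries and double-knockout replicates 3 and 4, are here called libraries without Y-linked counts. Whether the enterocyte genes or the sex of the mice took part in any difference described here was not tested beyond the fits with a term for Y-linked counts or without double-knockout replicates 1, 2 and 5.

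A single member left the family. Rpl29, a protein of the large subunit, had few counts assigned to its own row in the double-knockout libraries, while the other 82 tested members stayed within 1.5-fold of the family median. Counts for Rpl29 were 3259, 3482, 3503 and 2443 in the Smad4Vil-KO libraries and 38, 17, 47, 41 and 36 in the double-knockout libraries. The lowest Smad4Vil-KO library was far above the highest double-knockout library. The level was 205.9 ± 8.9 CPM (SD, n = 4) against 2.59 ± 0.84 CPM (SD, n = 5), 79.7-fold higher in Smad4Vil-KO IECs. The log2 fold change was -6.32 (SE 0.20, edgeR quasi-likelihood test, adjusted p = 2.94e-08). For Rpl29 summed with its annotated copies it was -1.03, as described below.

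Rpl29 lies at chr9:106429454-106431568 on the plus strand (GENCODE M21, GRCm38, the sequence of the mm10 build named by the submitters). The annotation holds 83 pseudogene copies of Rpl29, of which 21 were rows of the count table and 4 passed the filter on low counts. Of these 4, Gm6344, Gm8210 and Gm10709 had no more than 3 counts in every library of 1 genotype and passed the filter only through the other, so that their groups had to differ and their values are given as a description. Of the 4, Gm13841, Gm6344 and Gm8210 have the full 483 bases of the Rpl29 coding part and are shown here for that reason. The 2 stretches that hold every difference, positions 61 to 90 and 286 to 483 of the coding part counted from the A of the start codon, read as follows, 5′ to 3′ and from the transcripts of GENCODE M21. Capitals mark in Rpl29 the 4 positions at which a copy differs, and in a copy its own differing bases.
Rpl29, 61 to 90: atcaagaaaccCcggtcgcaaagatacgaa
Gm13841, 61 to 90: atcaagaaaccAcggtcgcaaagatacgaa
Gm6344, 61 to 90: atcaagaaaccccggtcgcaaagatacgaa
Rpl29, 286 to 483: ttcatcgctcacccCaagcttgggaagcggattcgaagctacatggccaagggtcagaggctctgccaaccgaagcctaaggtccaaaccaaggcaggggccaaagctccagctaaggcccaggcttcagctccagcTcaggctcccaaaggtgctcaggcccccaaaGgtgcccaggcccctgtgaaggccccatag
Gm13841, 286 to 483: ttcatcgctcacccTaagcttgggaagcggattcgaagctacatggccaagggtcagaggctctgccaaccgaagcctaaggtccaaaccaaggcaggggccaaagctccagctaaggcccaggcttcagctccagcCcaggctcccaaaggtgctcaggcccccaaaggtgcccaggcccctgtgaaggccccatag
Gm6344, 286 to 483: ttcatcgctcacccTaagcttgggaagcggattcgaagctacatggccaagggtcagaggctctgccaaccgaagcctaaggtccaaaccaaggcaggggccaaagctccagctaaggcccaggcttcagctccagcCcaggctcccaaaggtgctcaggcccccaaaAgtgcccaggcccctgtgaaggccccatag
Each copy matched Rpl29 at 480 of 483 positions (99.4%). On the same count of positions, Gm13841 differed by C72A, C300T and T423C and Gm6344 by C300T, T423C and G454A, with the base of Rpl29 first. Gm8210 had the same 483 bases as Gm13841. All 3 copies kept the 160 codons before the stop of Rpl29, and the encoded residues differed from it at 0 positions for Gm13841 and Gm8210 and at 1 position for Gm6344. A sequenced fragment that covers none of these positions is the same in all 4 loci, and the sources used here do not give how such fragments were assigned.

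The 3 full-length copies did not move together. Gm6344, at chr13:55085777-55086259 (plus strand), had 1566, 1635, 1836 and 1156 counts in the Smad4Vil-KO libraries and 2, 0, 1, 1 and 1 in the double-knockout libraries, where it was at the floor of 3 counts. It was thus at least 464-fold higher in Smad4Vil-KO IECs by a floor of 3 counts per library.
Gm13841, at chr5:115801677-115802159 (minus strand), went the other way, with 490, 514, 457 and 426 counts against 2591, 2135, 2195, 1716 and 2304. Levels were 30.9 ± 2.4 CPM (SD, n = 4) and 156.7 ± 16.4 CPM (SD, n = 5), and the log2 fold change was 2.34 (SE 0.10, edgeR adjusted p = 4.82e-07). Gm8210, at chr1:43189156-43189638 (plus strand), was at the floor in the Smad4Vil-KO libraries with 1, 0, 2 and 1 counts. It had 101, 57, 90, 86 and 59 counts in the double-knockout libraries, at least 28.4-fold more by the same floor. One more copy, Gm10709, lies on the chromosome of Rpl29 at chr9:7751725-7752204 (plus strand) and matches it at 476 positions with a gap of 3 bases. It had 38, 55, 94 and 59 counts in the Smad4Vil-KO libraries and 0, 1, 1, 0 and 2 counts in the double-knockout libraries, where it was also at the floor. For Rpl29 and Gm13841 the libraries of the 2 genotypes did not overlap, where 8.87% of all genes were lower and 8.34% higher without overlap. For the 3 copies at the floor the filter fixed this, so that their separation is no result.

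**Figure D1:**
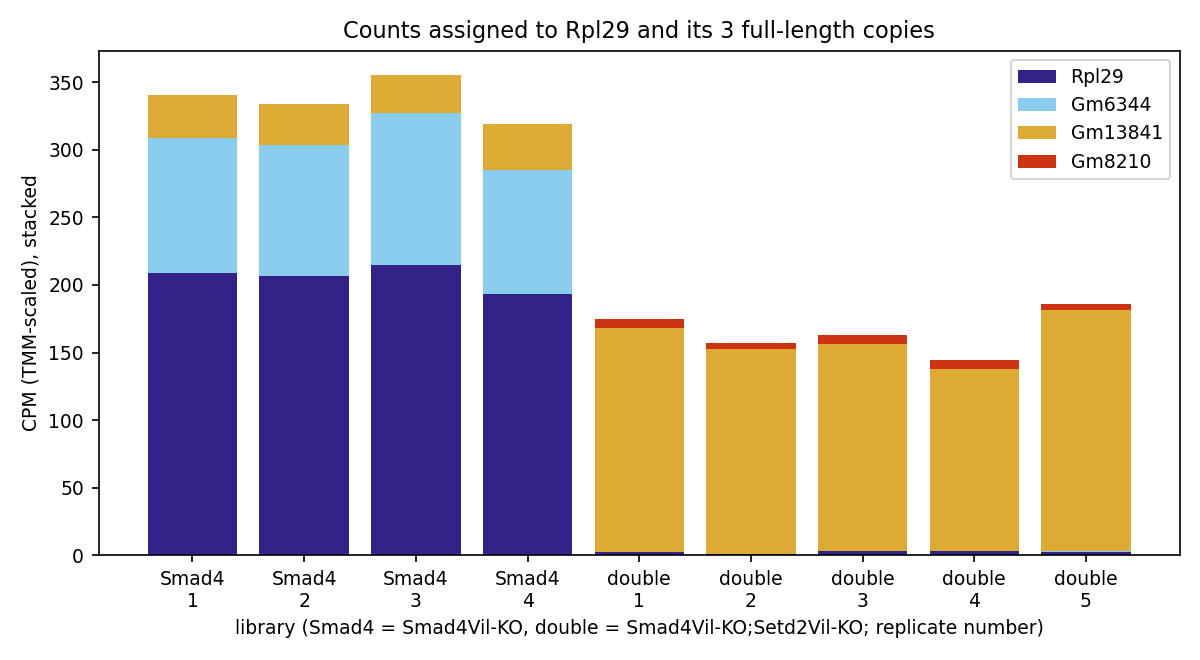
Level of Rpl29 and its 3 full-length copies in each of the 9 libraries, as stacked bars of CPM. Rpl29 and Gm6344 fill most of the 4 Smad4Vil-KO bars and Gm13841 most of the 5 double-knockout bars, and the whole bar is 319 to 355 CPM in the first and 145 to 186 CPM in the second.

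Summed over Rpl29 and the 3 full-length copies, the difference was smaller but remained. The sums were 340, 334, 355 and 319 CPM in the Smad4Vil-KO libraries and 175, 157, 163, 145 and 186 CPM in the double-knockout libraries. The 2 ranges did not overlap, and the mean was 2.04-fold higher in Smad4Vil-KO IECs (337 ± 15.1 CPM, SD, n = 4, against 165 ± 15.9 CPM, SD, n = 5). Rpl29 itself held 60.4% to 61.8% of this sum in every Smad4Vil-KO library and 0.77% to 2.22% in the double-knockout libraries. Gm13841 held 7.88% to 10.6% in the first and 93.1% to 96.7% in the second. In CPM, Rpl29 and Gm6344 dropped by 203 and 100.3 while Gm13841 gained 125.8. With all 21 copies in the table added to Rpl29, the log2 fold change was -1.03 (SE 0.08, edgeR adjusted p = 6.66e-05).

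Of 6 protein-coding genes next to Rpl29 on its chromosome, 3 were also called lower by edgeR. The 6 were chosen after their values were seen. Their count therefore cannot be compared with the 6.54% of all genes called lower, and is given as a description. Dusp7, a MAP kinase phosphatase, had 158, 186, 169 and 101 counts against 94, 42, 45, 61 and 70 (log2 fold change -1.14, SE 0.23, edgeR adjusted p = 0.00997). Acy1, an aminoacylase, had a log2 fold change of -1.004 (SE 0.13, adjusted p = 0.00129) and Abhd14a one of -1.12 (SE 0.23, adjusted p = 0.0120). Of the other neighbours, Abhd14b (-0.41, adjusted p = 0.101), Poc1a (-0.39, adjusted p = 0.0936) and Pcbp4 (0.66, adjusted p = 0.0602) did not pass the test. Setd2, at chr9:110532597-110618633 in GENCODE M21, begins 4.10 Mb beyond Rpl29 on the same chromosome.

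Apart from Rpl29, the members had small changes with a median slightly above 0. Of the 89 members, 83 passed the filter on low counts, 50 of the large and 33 of the small subunit. The 4 members Rps20, Rpl35, Rpl13a and Rpsa rose and 1 member, Rpl29, fell at an adjusted p under 0.05 (edgeR). Among all 14593 genes tested 6.76% were called higher and 6.54% lower, 13.3% in all, so that the members' shares of 4.82% and 1.20% were not above the background by edgeR. DESeq2 and limma-voom each called 12% of the members higher, where they called 10% and 9.60% of all genes. The median log2 fold change was 0.10 over the tested members and -0.000588 over all genes tested, and 66 members were fitted above 0 and 17 below. Without Rpl29 the members ran from -0.31 (Rpl15) to 0.43 (Rps12). The median was 0.08 for the large and 0.13 for the small subunit. At an unadjusted p under 0.05, 16 of the 83 tested members were higher and 1 of the 83 was lower, where 15.3% of all genes were in each direction. The libraries of the 2 genotypes did not overlap for 10 members that were higher, or 12.05% of those tested against 8.34% of all genes, and for 1 that was lower, against 8.87%. They included the 4 called members together with Rpl3, Rpl4 and Rplp2.

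**Figure D2:**
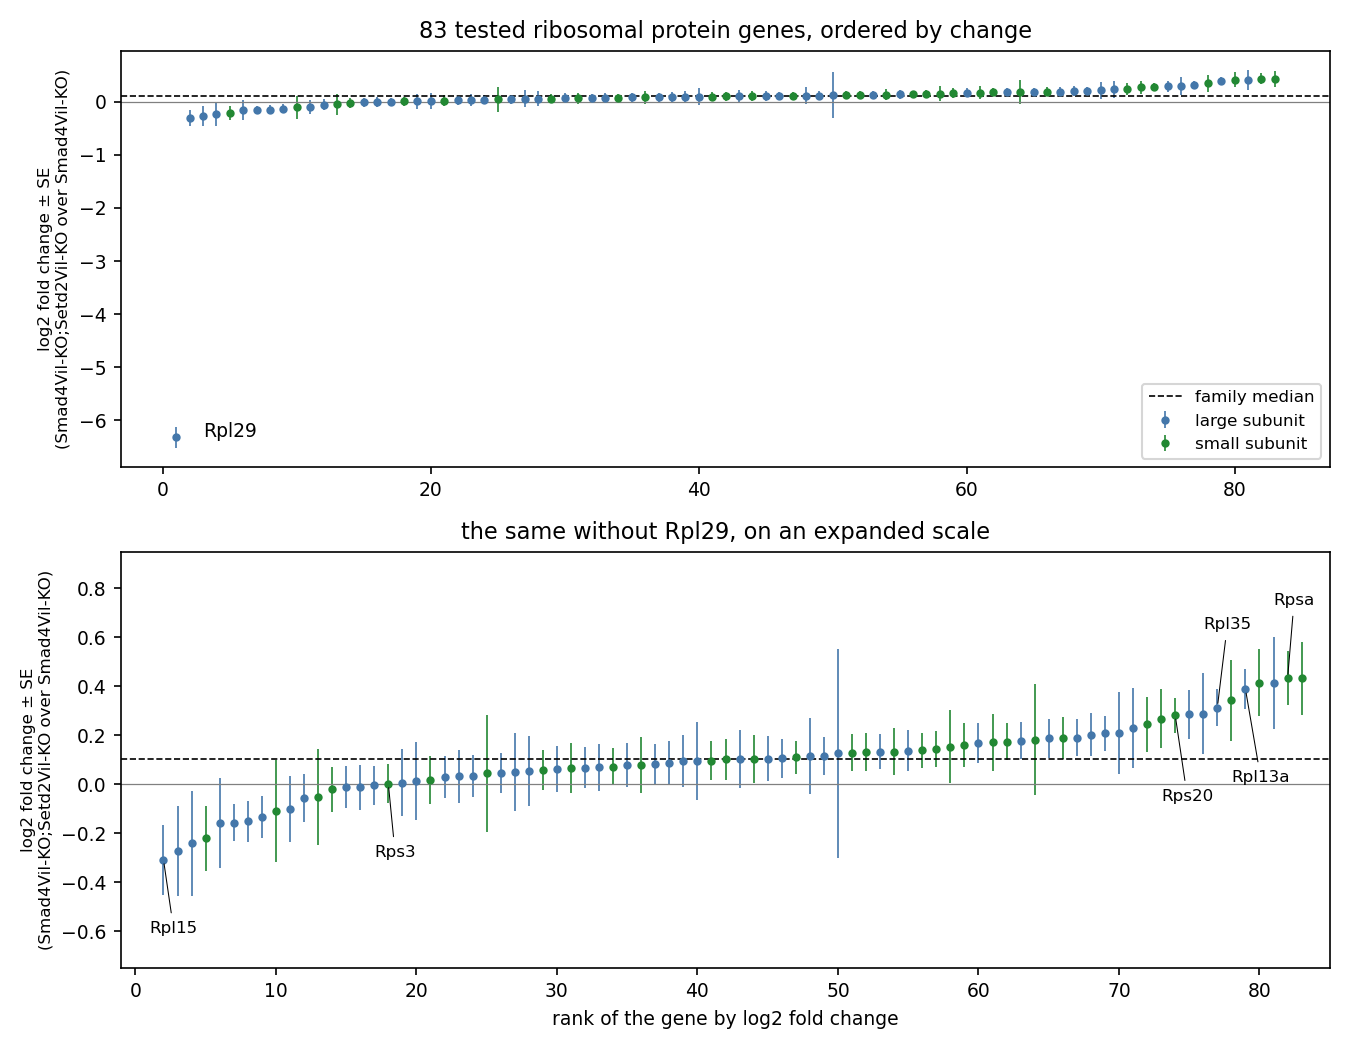
Log2 fold change of the 83 tested members, double-knockout over Smad4Vil-KO, ordered by size, with bars of 1 SE and the family median of 0.10 as a dashed line. Rpl29 at -6.32 stands alone in the upper panel, and the lower panel spreads the other 82 members, which lie between -0.31 and 0.43.

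Of the 4 members that rose, Rpl13a, a large subunit protein also known from the GAIT complex that silences mRNAs after interferon-gamma, had the lowest adjusted p. Its level was 414, 414, 446 and 394 CPM in the Smad4Vil-KO libraries and 590.1, 555, 540.3, 559.8 and 486 CPM in the double-knockout libraries. Every double-knockout library was above every Smad4Vil-KO library. Means were 417 ± 21.5 CPM (SD, n = 4) and 546 ± 38.1 CPM (SD, n = 5), and the log2 fold change was 0.39 (SE 0.08, edgeR adjusted p = 0.0130).

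Rpl35, a large subunit protein near the exit of the peptide tunnel, had 201, 192, 210.1 and 206 CPM in the Smad4Vil-KO libraries and 246, 259, 280.1, 236 and 238 CPM in the double-knockout libraries. The groups were again apart (log2 fold change 0.31, SE 0.08, edgeR adjusted p = 0.0223). Rps20, a small subunit protein of the head, had 218, 197, 207 and 186 CPM against 244, 253, 232, 250.5 and 249 CPM (log2 fold change 0.28, SE 0.07, edgeR adjusted p = 0.0269). Double-knockout replicate 3 was the lowest of its group and still above all Smad4Vil-KO libraries.

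Rpsa, the small subunit protein that was first described as a laminin receptor, had 668, 637, 675 and 492 CPM in the Smad4Vil-KO libraries and 902, 860.2, 847, 738 and 824 CPM in the double-knockout libraries (log2 fold change 0.43, SE 0.11, edgeR adjusted p = 0.0269). The low Smad4Vil-KO library, replicate 4, was high for a pseudogene copy, Rpsa-ps10, which had 92.3, 78.5, 90.3 and 316 CPM in the Smad4Vil-KO libraries and 87.8 to 119.1 CPM in the double-knockout libraries. Summed with its copies Rpsa had 789 ± 35.4 CPM (SD, n = 4) against 973 ± 68.7 CPM (SD, n = 5), and a log2 fold change of 0.31 (SE 0.08, edgeR adjusted p = 0.0337). For Rpsa alone the SD was 85.4 CPM in the Smad4Vil-KO libraries and 60.9 CPM in the double-knockout libraries, so that the sum had the smaller SD in the Smad4Vil-KO libraries and not in the double-knockout libraries.
These calls were near the threshold. Without Smad4Vil-KO replicate 2, 3 or 4 the count of members higher was 1 each time, Rpl13a. This was 1.2% of the members tested, where 4.02%, 3.06% and 4.16% of all genes were called higher. In the fit with all libraries 6.76% of all genes were. With a term for Y-linked counts Rpl13a and Rpl39 were called, or 2.41%, where 4.47% of all genes were called higher. In the libraries without Y-linked counts, which hold double-knockout replicates 3 and 4 alone, Rpl13a and Rpl35 were called. Rps20 and Rpsa were not (edgeR adjusted p = 0.0702 and 0.0878), while 6 other members were called higher. The members called higher there were 9.64%, where 9.29% of all genes were.

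**Figure D3:**
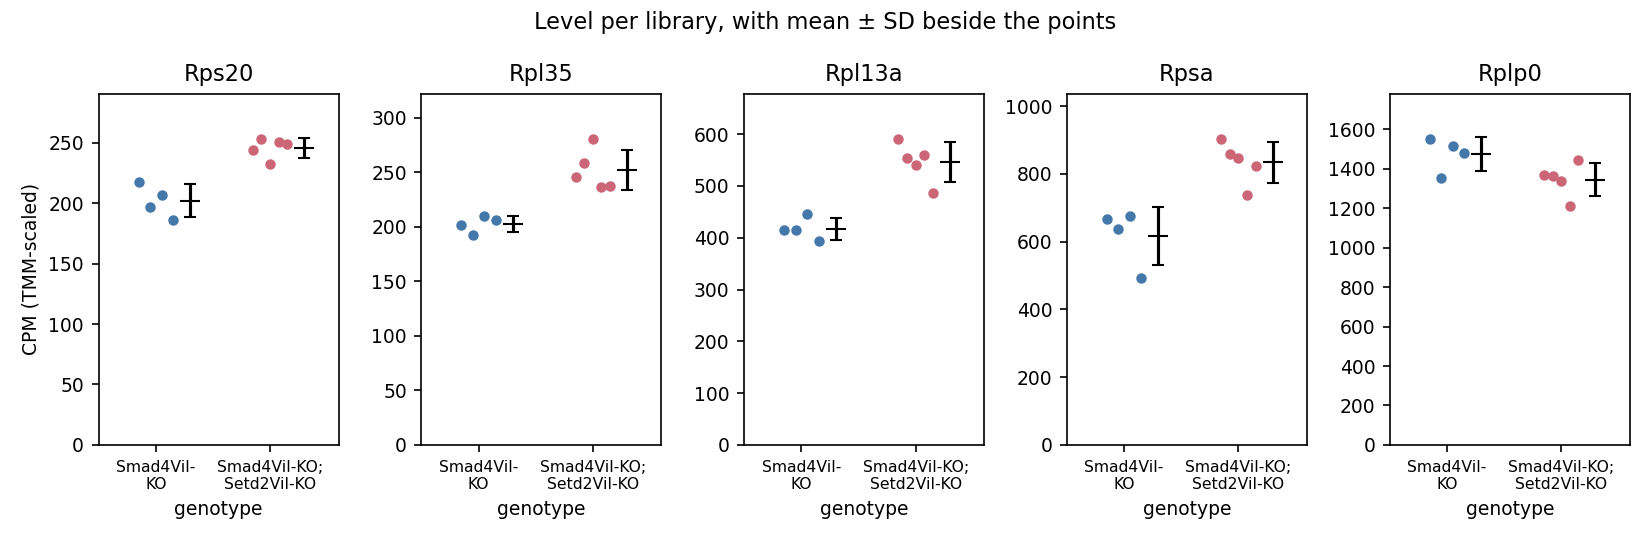
Level in CPM of the 4 members that rose and of Rplp0, the member with the highest mean CPM, with 1 point per library and the mean ± SD beside the points (n = 4 and n = 5). The 2 genotypes do not overlap for Rps20, Rpl35, Rpl13a and Rpsa and do overlap for Rplp0.

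The most abundant members other than Rpsa did not pass the test by edgeR, and Rpl4 and Rpl7 passed it with other tools. In mean CPM the 6 highest were Rplp0, Rpl4, Rpl7, Rpsa, Rps3 and Rps4x. Per kilobase of transcript the highest levels were those of Rpl41 (1419 CPM), Rps15 (1060.4 CPM) and Rplp0 (1033 CPM). Rplp0, the base of the acidic stalk that recruits elongation factors to the large subunit, had 1475 ± 85.9 CPM (SD, n = 4) against 1345 ± 84.5 CPM (SD, n = 5), with a log2 fold change of -0.13 (SE 0.09, edgeR adjusted p = 0.317). Rpl4, whose long loop lines the peptide tunnel, had 1082 ± 26.9 CPM against 1224 ± 54.8 CPM (log2 fold change 0.18, SE 0.08, edgeR adjusted p = 0.143), and its adjusted p was 0.00894 by DESeq2 and 0.0293 by limma-voom. Rpl7 had a log2 fold change of 0.20 (adjusted p = 0.145 by edgeR, 0.0497 by DESeq2 and 0.0279 by limma-voom). Rps4x had one of 0.13 (edgeR adjusted p = 0.264). Rps3, a small subunit protein at the mRNA entry with a second role in DNA repair, had the smallest change of these, with 712 ± 26.2 CPM against 714 ± 47.0 CPM (log2 fold change 0.00, SE 0.08). Nearest to the family median among the 30 most abundant members were Rps15a, Rps2 and Rpl30, each with a log2 fold change of 0.10.

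Rplp1 and Rplp2, which form dimers on Rplp0, had values in opposite directions and did not pass the test. Rplp1 had 528, 473, 515 and 443 CPM against 398, 443, 449, 455 and 461 CPM (log2 fold change -0.15, SE 0.08, edgeR adjusted p = 0.246), with overlap. Rplp2 had 231, 218, 232 and 231 CPM against 234, 248, 237, 286 and 276 CPM (log2 fold change 0.17, SE 0.08, adjusted p = 0.188). All 5 double-knockout values of Rplp2 were above the Smad4Vil-KO range. Rpl5 and Rpl11, which with 5S rRNA bind Mdm2 when ribosome assembly is disturbed, had log2 fold changes of 0.03 and -0.01 (SE 0.08 and 0.09). The 12 genes of the ribosomal stress response, with Mdm2 and p53 targets such as Cdkn1a, had 0 called by edgeR and a median log2 fold change of 0.14. At an unadjusted p under 0.05, 1 of the 12 was higher and 2 were lower, where 15.3% of all genes were in each direction. DESeq2 called 0, and limma-voom called 1 higher, where it called 9.60% of all genes.

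Of the paralogues of ribosomal proteins, 3 of the large and 2 of the small subunit were tested and 0 were called by edgeR. Rpl22l1 and Rps27rt were higher at an unadjusted p under 0.05 and by limma-voom, and DESeq2 called 0. Rpl22l1, a paralogue of Rpl22, had 39.5, 35.4, 40.2 and 37.5 CPM against 41.3, 33.2, 51.5, 71.9 and 56.6 CPM (log2 fold change 0.41, SE 0.19, edgeR adjusted p = 0.161), while Rpl22 had one of 0.09 (SE 0.09). Double-knockout replicates 1 and 2, both with Y-linked counts, were the low ones for Rpl22l1, while replicate 5, which also had them, was not. Over the libraries without Y-linked counts its log2 fold change was 0.70 (edgeR adjusted p = 0.00581). Without double-knockout replicate 2 it was 0.54 (edgeR adjusted p = 0.0449), and by limma-voom over all libraries it was 0.54 (adjusted p = 0.0331). Under the other 16 of 19 alternatives Rpl22l1 was not called. With each library left out its log2 fold change ran from 0.27 to 0.54. Rps27rt, a retrogene of Rps27 that is no member, had the largest change of the 5, with 15.1 ± 3.4 CPM against 21.5 ± 5.4 CPM and overlap (log2 fold change 0.51, SE 0.20, adjusted p = 0.111 by edgeR and 0.0456 by limma-voom). Rpl36al, also no member, had 119 ± 7.9 CPM against 114 ± 16.9 CPM (log2 fold change -0.06, SE 0.11), with the sign turned in the libraries without Y-linked counts (0.09). Rps27l had 109 ± 7.5 CPM against 120 ± 13.8 CPM and a log2 fold change of 0.13 (SE 0.10). Per kilobase of transcript Rps27l was at 201 CPM and its paralogue Rps27 at 12.1 CPM. Of Rps27, 98.6% of the 50-base words were shared with another annotated gene. Rpl7l1, a ribosome assembly protein, had a log2 fold change of 0.06 (SE 0.14). The main copies Rpl3, Rpl10 and Rpl39 had log2 fold changes of 0.21, 0.14 and 0.29 (edgeR adjusted p = 0.0749, 0.285 and 0.0839). Rpl3 passed the test by DESeq2 (adjusted p = 0.00443) and limma-voom (adjusted p = 0.0243). Rpl39 also passed by DESeq2 (adjusted p = 0.0448) and limma-voom (adjusted p = 0.0144), and Rpl10 by neither. Over all 9 libraries Rpl10l was at 0 counts, Rpl39l at no more than 1, Rpl3l, best known from muscle, at no more than 3, and Rps4l at no more than 11, and these did not pass the filter.

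The other 2 members below the filter were Rps12l1, a pseudogene with 1 to 6 counts, and Rps28 with 0 to 6 counts. Rps28 is an essential protein of the small subunit, and nearly all counts of the gene and its copies together were in the copies. Its copy Gm10443, at chr6:86334031-86334240, holds all 25-base words of the Rps28 coding part and had 1547, 1476, 1503 and 1161 counts in the Smad4Vil-KO libraries and 1492, 1415, 1663, 1654 and 1236 counts in the double-knockout libraries. Only 0.184% of the summed counts of Rps28 and its copies were in the gene itself.
The same held for 3 further small subunit genes. The gene itself had 2.76% of the summed counts for Rps13, 2.91% for Rps29 and 3.77% for Rps23, and their main copies were Rps13-ps1, Gm14303 and Rps23-ps1. Summed with their copies, Rps28, Rps13, Rps29 and Rps23 reached 121.9, 127.7, 111.1 and 146.5 CPM in the Smad4Vil-KO libraries. How fragments shared by near-identical sequences were divided is not given in the sources used here, and in these rows the level of a gene cannot be told apart from that of its copies.

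Across the family, 1111 annotated pseudogenes held at least 10% of the 25-base words of a member's coding part, and 727 of them were in the table. At least 1 copy was annotated for 80 of the 83 protein-coding members. The median protein-coding member shared 57.4% of its 50-base words with another annotated gene, and the highest share among these 83 was 98.6% for Rps27. In the median protein 85.5% of the counts were in the gene itself, and in 24 proteins under 50% were. Over the 82 protein-coding members with counts, this share had a Spearman rho of -0.44 with the share of 50-base words found elsewhere, and the level in CPM per kilobase one of -0.20. These points come from the same 9 libraries and are given as a description.

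When each gene was summed with its copies, 80 proteins could be tested. Of these, 10 rose and 1 fell, against 6.88% higher and 6.31% lower among all 14427 features of that fit (edgeR). The 10 were Rps20, Rpl35, Rpl13a and Rpsa together with 6 that were not called alone, Rpl12, Rpl14, Rpl27a, Rps6, Rps12 and Rps23. Rps23 had the lowest adjusted p of these, with 146.5 ± 8.1 CPM (SD, n = 4) against 205.8 ± 21.6 CPM (SD, n = 5), and its log2 fold change was 0.50 (SE 0.09, edgeR adjusted p = 0.00670). Its main copy Rps23-ps1 had 140.4, 127.8, 146.5 and 139.6 CPM against 191.6, 209.5, 221, 183.8 and 166.5 CPM, with no overlap. The 1 that fell was again Rpl29, and for the other 78 genes tested both ways the 2 log2 fold changes were within 0.41 of each other. Among the 79 genes tested both ways, 11 were fitted below 0 alone and above 0 with copies, such as Rpl15 (-0.31 and 0.04), Rpl28 (-0.27 and 0.14), Rpl10a (-0.24 and 0.12) and Rps10 (-0.22 and 0.16), none of which was called either way. Taken as rows of their own, 163 copies that are no members passed the filter. Apart from the 3 copies of Rpl29 at the floor in 1 genotype, 28 of 160 were called higher and 0 lower (edgeR), or 17.5% higher, where 6.76% and 6.54% of all genes were called, and their median log2 fold change was 0.34. Copies with low counts could pass the filter through the genotype in which they were higher, and these counts are a description.

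**Figure D4:**
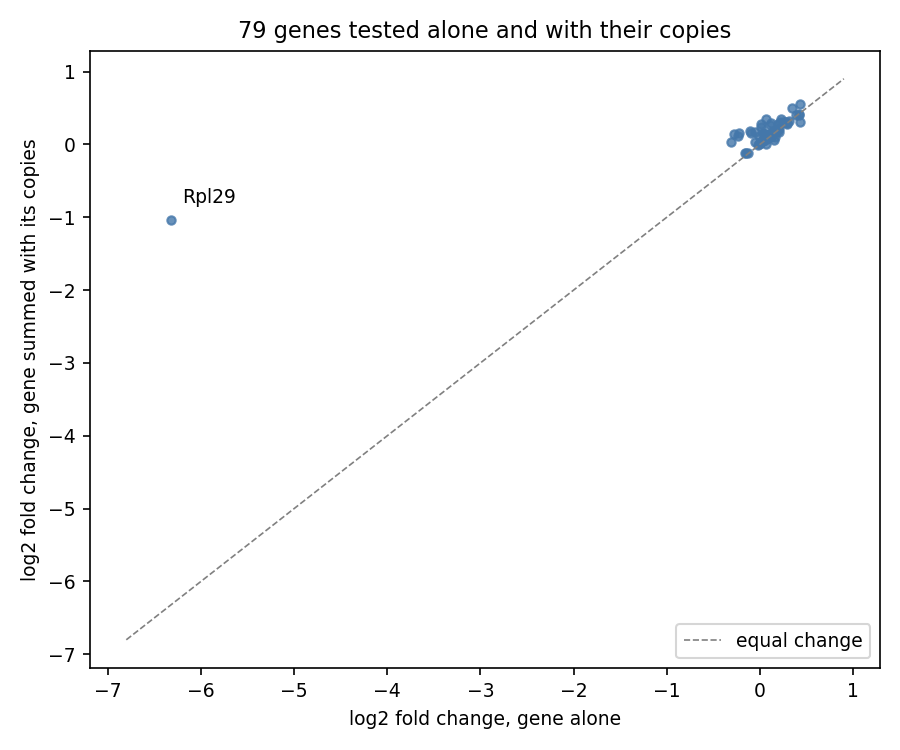
Log2 fold change of 79 genes tested alone (x axis) and summed with their annotated pseudogene copies (y axis), with a dashed line of equal change. Rpl29 moves from -6.32 to -1.03, the other genes lie within 0.41 of the line, and 11 genes turn from below 0 to above it.

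The share of all counts in the family was 1.85%, 1.80%, 1.98% and 1.89% in the Smad4Vil-KO libraries and 2.14%, 1.99%, 2.07%, 1.99% and 2.05% in the double-knockout libraries. The means were 1.88% ± 0.078 (SD, n = 4) and 2.05% ± 0.063 (SD, n = 5), and the ranges lay side by side without overlap. As a share of the counts outside the mitochondrial genome the ranges overlapped, at 1.97% to 2.16% against 2.12% to 2.31%. Pseudogene copies added 0.383% to 0.434% in the first and 0.458% to 0.507% in the second. The ratio of large to small subunit counts, with Rpl29 left out, was 1.31 to 1.32 in the Smad4Vil-KO libraries and 1.25 to 1.28 in the double-knockout libraries. The small subunit had 0.767% to 0.848% of the counts against 0.875% to 0.939%, and the large subunit 1.03% to 1.13% against 1.10% to 1.20%. In these bulk libraries a change in the cell types present and a change in the RNA per cell cannot be told apart.

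**Figure D5:**
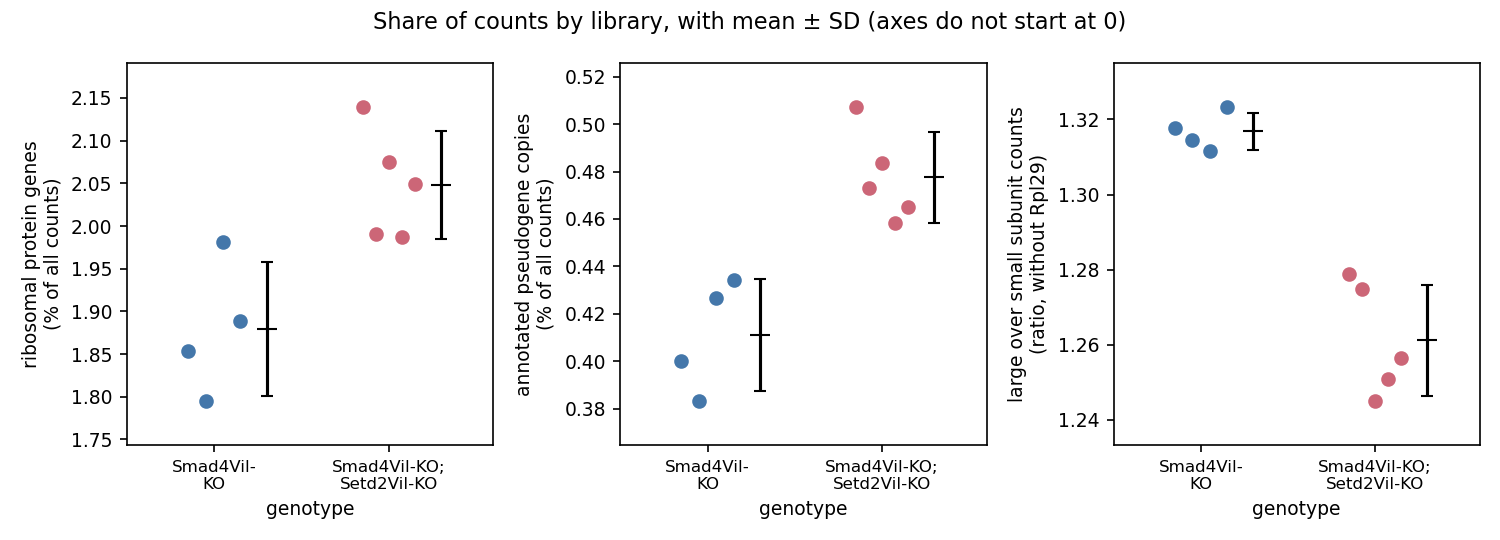
Share of all counts in the family (left), share in its annotated pseudogene copies (middle) and ratio of large to small subunit counts without Rpl29 (right), with 1 point per library and the mean ± SD (n = 4 and n = 5). The axes do not start at 0. The family's share is 1.80% to 1.98% in Smad4Vil-KO and 1.99% to 2.14% in double-knockout libraries, and the ratio is lower in all 5 double-knockout libraries.

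Around the ribosome, 8 of 74 assembly factors (10.8%) rose and 0 were lower by edgeR, where 6.76% and 6.54% of all genes were called, and their median log2 fold change was 0.16. At an unadjusted p under 0.05, 15 were higher and 2 lower, where 15.3% of all genes were in each direction. DESeq2 called 11 higher (14.9%) and 0 lower, where it called 10% and 9.12% of all genes, and limma-voom called 11 higher and 2 lower, where it called 9.60% and 10.4%. Nmd3, the export adaptor of the large subunit, rose from 32.6 ± 4.1 CPM to 53.3 ± 8.3 CPM (log2 fold change 0.71, SE 0.13, edgeR adjusted p = 0.00619). Ncl, the nucleolar protein nucleolin, had a log2 fold change of 0.52 (SE 0.15, adjusted p = 0.0487) and Taf1d, a subunit of the RNA polymerase I factor SL1, one of 0.49 (SE 0.13, adjusted p = 0.0285). Of 22 translation factors and other mRNAs with a pyrimidine tract, Npm1 and Eif3e rose (log2 fold change 0.39 and 0.28, adjusted p = 0.0356 and 0.0422) and Eif2s3x, a gene of the X chromosome, fell (-0.56, adjusted p = 0.0164) by edgeR. Only double-knockout replicates 1, 2 and 5 had Y-linked counts of at least 3857. Whether the sex of the mice took part in the fall of Eif2s3x was not tested. DESeq2 called 5 of the 22 higher and 1 lower, or 22.7% and 4.55%, where it called 10% and 9.12% of all genes, and limma-voom called 6 higher and 1 lower, where it called 9.60% and 10.4%. Among 17 regulators of these mRNAs, which include mTOR and its partners, Tfeb and Tsc2 were lower (log2 fold change -0.46 and -0.34, edgeR adjusted p = 0.0348 and 0.0302) and 0 were higher. DESeq2 called 2 of the 17 lower, where it called 9.12% of all genes lower, and limma-voom 3, where it called 10.4%. At an unadjusted p under 0.05, 4 were lower, where 15.3% of all genes were, and 0 were higher by any of these.

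The ribosome of mitochondria, encoded by a separate nuclear family, had a median log2 fold change of -0.06. Of 76 tested members 2 rose (Mrpl30 and Mrps31) and 3 fell (Mrpl3, Mrps34 and Mrps17) by edgeR, or 2.63% and 3.95%, both below the 6.76% and 6.54% of all genes. DESeq2 called 3 higher and 9 lower, or 3.95% and 11.8%, where it called 10% and 9.12% of all genes, and limma-voom called 2 and 8, where it called 9.60% and 10.4%. Markers of dividing cells had 0 of 12 called by edgeR (1 unadjusted, 0 by DESeq2 and 1 by limma-voom), a median of 0.15 and sums of 1128 to 1339 CPM against 1108 to 1767 CPM, with overlap.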

How the data were processed

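RNA was sequenced from colon IECs of 9 libraries, 4 Smad4Vil-KO and 5 Smad4Vil-KO;Setd2Vil-KO, grouped by the labels. The authors deposited whole-number counts per gene symbol, not normalised. The submitters' processing notes name HISAT2 2.0 and the mm10 build. The counting program, annotation, use of strand and treatment of reads with several matches are not given in the sources used here. Of the symbols, those turned into dates stayed in the totals. Counts were filtered with filterByExpr, scaled by TMM and tested with the quasi-likelihood test of edgeR 4.0.16 (R 4.3.3) over all genes, without covariates and with Benjamini-Hochberg adjustment. A SE is the log2 fold change over the root of F. Gene, transcript and pseudogene positions come from GENCODE M21 (GRCm38). A pseudogene was taken as a copy when it held at least 10% of the 25-base words of a coding part. One transcript per gene was used, which makes levels per kilobase rough. Alternatives were DESeq2 1.42.0, limma-voom (limma 3.58.1), other scalings and filters, left-out libraries, a replicate block and a term for Y-linked counts. Named were the called members, those more than 2-fold from the family median, the 6 most abundant, 3 near the median, paralogues, stalk and 5S genes, and the largest called changes of other lists. The members and lists were chosen with earlier results of these data known. Counting error alone is covered by the floor of 3 counts.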

Additional observations from a re-analysis of the deposited data

Results flagged for a closer look

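Of 66 groups of values tested, 4 had a library set apart from the rest by Dixon's criterion, and chance alone gives about 1 in 20 such groups. Double-knockout replicate 1 had 398 CPM of Rplp1 where the other double-knockout libraries had 443 to 461 CPM. The other 3 were in Smad4Vil-KO replicate 2, the most deeply counted library, which had 218 CPM of Rplp2 against 231 to 232 CPM in the rest of its group, 247 CPM of Rps15a against 271 to 273 CPM, and 642 CPM of Rps4x against 666 to 670.4 CPM. The same library had the lowest share of ribosomal protein counts (1.80%). None of these members passed the test between genotypes by edgeR.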

How the results depend on the processing

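Rpl29 fell under all 19 alternatives (log2 fold change -6.41 to -5.98), and Rpl13a rose under all 19 (0.30 to 0.44, adjusted p 1.62e-05 to 0.0488). Members higher numbered 4 in the fit described and 10 with DESeq2, 10 with limma-voom with quality weights, 1 with the summed ribosomal protein counts as library size, 2 without a filter on low counts, 2 with a term for Y-linked counts, 8 in libraries without Y-linked counts (Rps20 and Rpsa not among them), 0 at an adjusted p under 0.01 and 0 when an unadjusted p under 0.05 and over 1.5-fold were asked for. With each library left out they ranged from 1 to 6, or 1.2% to 7.23% of the members tested, where 3.06% to 9.52% of all genes were higher. The 10 were 12% of the members tested, where DESeq2 called 10% and limma-voom 9.60% of all genes higher, and the 8 were 9.64%, where 9.29% of all genes were higher in those libraries. In the fit described the 4 were 4.82%, where 6.76% of all genes were higher. Relative to the summed family counts the 1 was 1.2%, where 4.41% of all genes were higher. The 2 without a filter were 2.27%, where 3.37% were, and the 2 with the Y-linked term 2.41%, where 4.47% were. The count lower was 1 throughout. Relative to the summed family counts the median log2 fold change was 0.01 (0.00845) instead of 0.10, and it was 0.07 to 0.13 with each library left out. Without a filter 3 members left the family, of which Rpl29 alone was called. Summing Rpl29 with its copies moved its log2 fold change from -6.32 to -1.03.

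The sign of uncalled members near 0 turned under some settings. Rps3 was at -0.09 (-0.0889) relative to the summed family counts, -0.02 without a filter (-0.0152) and -0.02 with the replicate block (-0.0205), and -0.0203 to 0.0271 with libraries left out. Rpl5 was at -0.01 with limma-voom (-0.0136), -0.06 relative to the summed family counts (-0.0583), -0.06 with a term for Y-linked counts (-0.0624) and -0.06 in libraries without them (-0.0578), and -0.0153 to 0.0686 with libraries left out. Rpl11 was at 0.02 by library size alone (0.0179) and -0.0516 to 0.0386 with libraries left out, Rpl7l1 at -0.04 relative to the family (-0.0446) and -0.0290 to 0.150 with libraries left out, and Rpl22 at -0.01 relative to the family (-0.00619). Rpl36al was at 0.09 with a term for Y-linked counts (0.0871) and in libraries without them (0.0919).

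Same-numbered libraries of the 2 genotypes had correlations of deviations of -0.0955, -0.104, 0.0196 and 0.0878. These lay within the range of differently numbered libraries, -0.261 to 0.304. Whether the numbers pair the libraries cannot be told from these values. With the replicate block over the 8 libraries numbered in both genotypes, 3 members were higher (Rpl13a, Rps18 and Rpsa) and 1 lower, and Rpl35 and Rps20 were not called. These were 3.61% and 1.2% of the members tested, where 5.57% and 5.34% of all genes were called. The double-knockout libraries had 0.17 percentage points more of their counts in the family, 0.140 to 0.203 with each library left out, 0.176 when mitochondrial counts were left out of the total, and 0.235 when pseudogene copies were counted with the family. Low counts limit what could be seen in Rps28, Rps13, Rps29 and Rps27.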
